A study of Mus musculus with 5 samples.

Results

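Otx2, Neurod1, Esrrb, Rorb, Rxrg and Bhlhe40 are mouse genes of transcription factors that act in photoreceptors, the light-sensing rods and cones of the retina. The probes were those whose single gene symbol in the probe annotation is 1 of these 6 names. This gave 7 probes, 2 for Esrrb and 1 for each of the others, out of 11813 probes with a single symbol, and 6 genes out of 8944 so named. The samples were 5 two-colour Agilent arrays, called technical replicates in the labels. Each array carried total RNA of adult C57/B6 mouse retina, labelled with the red dye Cy5, beside a reference of Swiss-Webster mouse cortex of postnatal day 1, labelled with the green dye Cy3. Both RNAs came from pools, 1 per tissue, and no array had the dyes swapped, so tissue, age, strain and dye cannot be told apart. The p-values therefore measure labelling and hybridisation spread only, since no second pool of either tissue was run.

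A value below is a log2 ratio of retina over cortex, given as mean ± SD over the arrays, unless it is called a deposited log10 value. The log10 base of the deposited values and the direction, retina over cortex, are likely from the range of the values and from the dyes and titles. They are not stated in the sources used here, and with the direction turned every sign below would turn. A probe or gene is called higher or lower only where its log2 ratio was beyond 1 or -1, that is 2-fold, in limma's treat test, at a Benjamini-Hochberg adjusted p below 0.05 over all probes or genes tested. Of 11784 probes tested, 320 were called higher, or 2.72%, and 460 lower, or 3.90%, together 6.62%. RNA of whole tissue was measured, so fewer cells of a type and less RNA per cell cannot be told apart.

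Photoreceptors arise from dividing progenitors of the embryonic and newborn retina. The homeodomain factor Otx2 commits cells to the photoreceptor fate and activates the related factor Crx, and Nrl and Nr2e3 then set rods apart from cones. Orphan and retinoid nuclear receptors (Rorb, Esrrb, Rxrg) and basic helix-loop-helix factors (Neurod1, Bhlhe40) act around this core. Most of these factors are also made elsewhere: Otx2 in bipolar cells, pigment epithelium and choroid plexus, Neurod1 in amacrine cells and in the forebrain, and Rorb in inner retinal neurons and in layer IV of the cortex.

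Otx2, Esrrb, Neurod1 and Rorb were called higher in adult retina than in newborn cortex, between 3.30-fold and 10.7-fold, on 4 of the 7 probes. The probes of Rxrg and Bhlhe40 and the other Esrrb probe lay within 2-fold of equal on every array with a value. At gene level 4 of the 6 genes were called higher and 0 lower, where 2.80% of 8798 genes were called higher and 3.83% lower, together 6.63%. By limma's 2-fold test 0 of the 6 were lower at an unadjusted p below 0.05 too. The median over the 6 genes was 2.25, and that over all genes was -0.0048. In these gene-level figures Esrrb is represented by 1 of its 2 probes, probe 427.

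**Figure D1:**
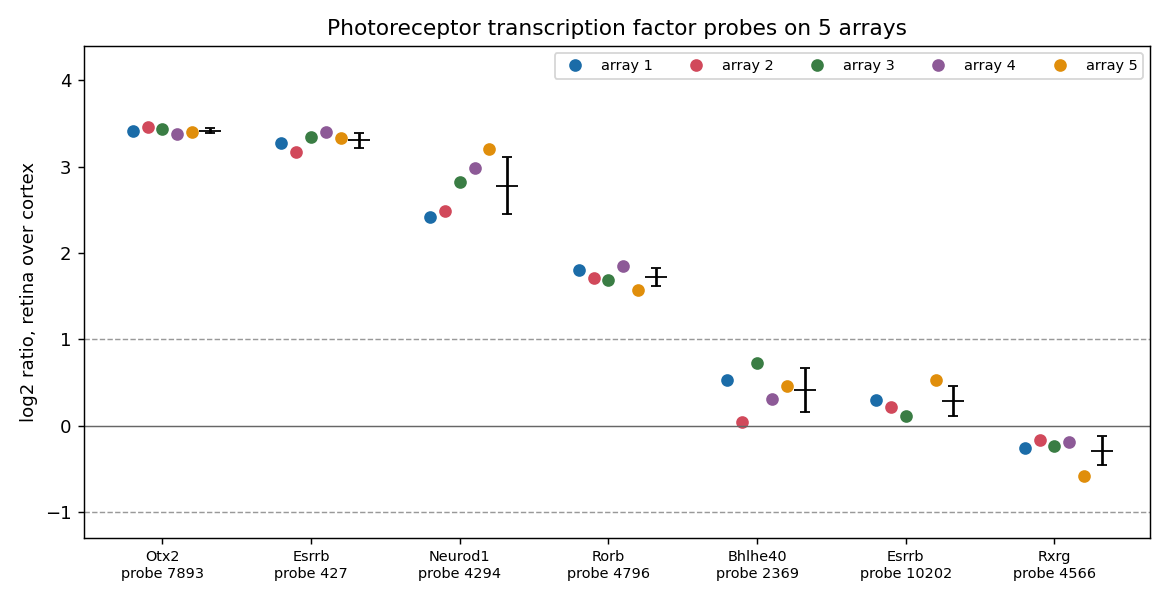
Log2 ratio of retina over cortex (vertical axis) of the 7 probes on each of the 5 arrays (coloured points), with the mean and SD beside them (black) and 2-fold in either direction as dashed lines. The points of Otx2, Esrrb probe 427, Neurod1 and Rorb all lie above 1, and those of Bhlhe40, Esrrb probe 10202 and Rxrg all lie between -1 and 1.

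Otx2, which stays on in mature photoreceptors and bipolar cells, had the highest ratio of the 6 genes. Its deposited log10 values on arrays 1 to 5 were 1.03, 1.04, 1.03, 1.02 and 1.03. On the log2 scale these were 3.42, 3.46, 3.44, 3.38 and 3.41, so the highest and the lowest array differed by a factor of only 1.06. The mean of 3.42 ± 0.03 (n = 5 arrays) is a 10.7-fold higher level in the retina pool, with a 95% interval of 10.3-fold to 11.1-fold and an adjusted p of 9.28e-08 in limma's 2-fold test. The SD lay at the 5.99th percentile of all probes tested. Among the probes with a value on each array, Otx2 ranked from 7 to 16 by ratio, out of at most 11801.

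Choroid plexus, another source of Otx2 RNA, sits inside the forebrain and could have entered the cortex pool. Of 6 choroid plexus markers 2 were measured, with ratios from -1.40 to 2.39: the transthyretin gene Ttr was called lower in retina at -1.40 ± 0.04, and the water channel gene Aqp1, which some amacrine cells also make, was called higher at 2.39 ± 0.12. Of 10 pigment epithelium markers 0 were measured. The part of either tissue in the Otx2 ratio was not tested.

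Neurod1, a helix-loop-helix factor needed for photoreceptor survival and for a cone opsin programme, was called higher on a probe that varied more between arrays. Its 5 arrays read 2.42, 2.48, 2.82, 2.98 and 3.20. Arrays 1 and 2 were the low ones and array 5 the high one, with a factor of 1.73 between the lowest and the highest. The mean was 2.78 ± 0.33 (n = 5), or 6.87-fold higher with a 95% interval of 5.55-fold to 8.50-fold and a limma adjusted p of 0.000141. The SD was at the 92nd percentile of all probes. Even the lowest array stood at a log2 ratio well above 1, and the rank by ratio ran from 58 on array 1 to 18 on array 5.

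Esrrb encodes an orphan receptor of the oestrogen-related family that supports rod survival, and it was the only gene of the 6 with more than 1 probe. Probe 427 read 3.27, 3.18, 3.35, 3.40 and 3.34 on arrays 1 to 5, a mean of 3.31 ± 0.09 or 9.89-fold higher, with a limma adjusted p of 3.52e-07. Probe 10202 read 0.29, 0.22, 0.11 and 0.52 on arrays 1, 2, 3 and 5, and an exact 0 on array 4, which was read as no value. Its mean of 0.29 ± 0.18 (n = 4) is 1.22-fold, with a 95% interval of 1.07-fold to 1.39-fold and an adjusted p of 1 in the 2-fold test. The annotation gives probe 10202 an mRNA accession that RefSeq lists among the Esrrb transcripts, while the 2 accessions of probe 427 are not among them. The probes of the other 5 genes had no such match either. Which of the 2 probes reports the level of Esrrb in these pools was not tested.

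The probes of Esrrb stood 3.00 ± 0.18 apart, or 7.98-fold, over the 4 arrays that measured both. The difference on single arrays ran from 2.81 to 3.24. Among all 3691 pairs of probes that share a gene, 140 pairs, or 3.79%, passed limma's test for a difference above 2-fold, and the Esrrb pair was among them with an adjusted p of 0.000165. Only 3 pairs differed by more than this one, and the median absolute difference of all pairs was 0.32. The gene-level ratio of Esrrb, which takes probes with a value on all 5 arrays, therefore rests on probe 427 alone. Without array 4, where both probes count, it was 1.78, and with the values present on each array averaged it was 2.11, with adjusted p-values of 0.000288 and 0.0471.

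Rorb, an orphan receptor that acts upstream of Nrl in rods and is also a layer IV gene of the cortex, had the smallest ratio among the genes called higher. It read 1.81, 1.71, 1.68, 1.85 and 1.57 on arrays 1 to 5. All 5 values lay above 2-fold and below the lowest value of Neurod1. The mean was 1.72 ± 0.11 (n = 5), or 3.30-fold higher with a 95% interval of 3.06-fold to 3.57-fold and a limma adjusted p of 7.93e-05. The rank by ratio ran from 121 to 211.

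Rxrg, a retinoid X receptor that marks cones and helps to place cone opsins across the mouse retina, was the only gene of the 6 with ratios below 0. It read -0.27, -0.17, -0.24, -0.19 and -0.58 on arrays 1 to 5, with array 5 apart from the rest. The mean of -0.29 ± 0.17 (n = 5) corresponds to 1.22-fold lower in retina. It differed from 0 in limma's test with an adjusted p of 0.00845, as did 70.4% of all probes at the same threshold, and it did not pass the 2-fold test (adjusted p of 1). The 95% interval of the ratio ran from -0.45 to -0.13, which is inside 2-fold.

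Bhlhe40, known as Dec1, is a repressor that binds E-boxes and damps the circadian activators Clock and Arntl. Its arrays read 0.53, 0.05, 0.73, 0.30 and 0.46. All were above 0, with array 2 near 0 and array 3 highest, a factor of 1.61 between them. The mean of 0.41 ± 0.26 (n = 5) is 1.33-fold, with a 95% interval of 1.13-fold to 1.57-fold and an adjusted p of 1 in the 2-fold test. Against 0 the adjusted p in limma's test was 0.00965, and 70.4% of all probes passed that test at 0.05. Its rank by ratio moved between 874 and 5384.

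**Figure D2:**
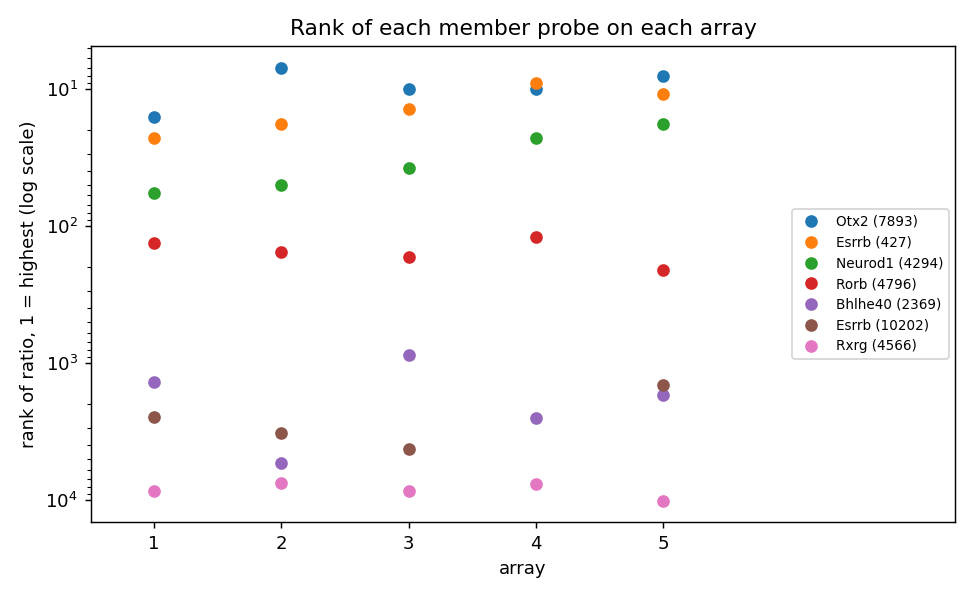
Rank of the ratio of each of the 7 probes among all probes with a single gene symbol and a value (vertical axis, log scale, 1 is the highest) on each array (horizontal axis). Otx2 stays between ranks 7 and 16, Rorb between 121 and 211, and Bhlhe40 moves between 874 and 5384.

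By gene-level ratio the order was Otx2, Esrrb, Neurod1, Rorb, Bhlhe40 and Rxrg. Otx2 stood above Esrrb by 0.11 ± 0.11 and on 4 of 5 arrays, a difference about as large as its SD between arrays. The exact two-sided sign-flip permutation p was 0.125. The other 4 neighbouring pairs kept their order on all 5 arrays, with differences of 0.53 ± 0.28, 1.06 ± 0.40, 1.31 ± 0.29 and 0.70 ± 0.34 from the top down. Each had an exact permutation p of 0.0625, the smallest that 5 arrays allow, and an adjusted p of 0.0781 over the 5 pairs, so the design could not reach 0.05. The place of Esrrb in this order holds for probe 427 only: without array 4 it stood 0.94 below Neurod1 and not above it.

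**Figure D3:**
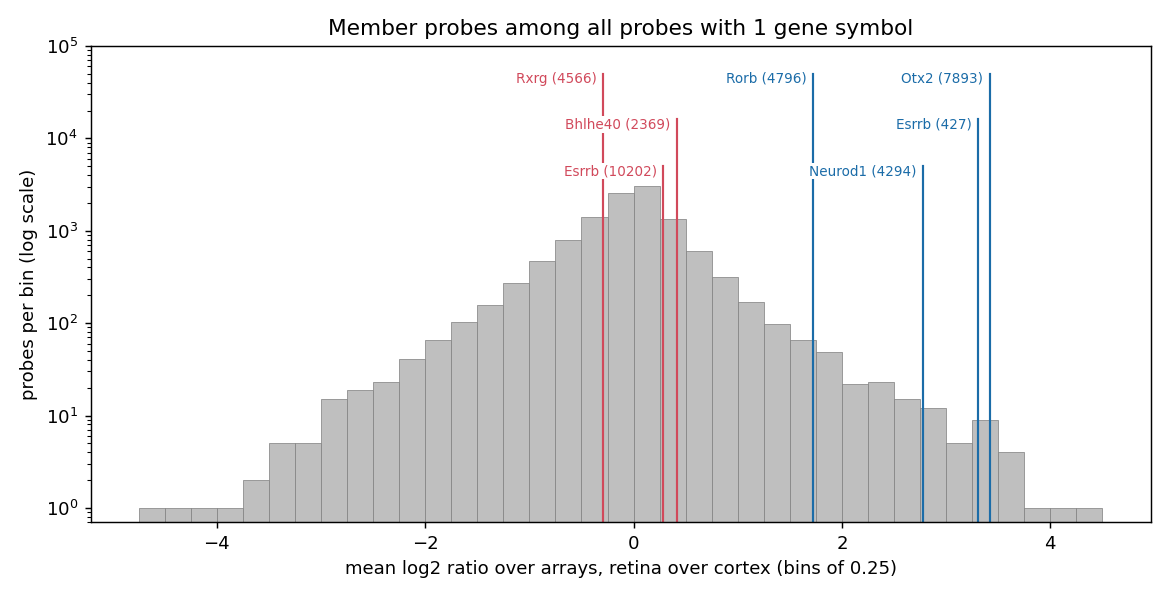
Number of probes per bin of 0.25 (vertical axis, log scale) against the mean log2 ratio of retina over cortex (horizontal axis) for the 11784 probes tested, with the 7 probes marked as vertical lines (blue where called higher, red where not called). Otx2 and Esrrb probe 427 lie in the same bin of the upper tail, and Rxrg, Bhlhe40 and Esrrb probe 10202 lie near the centre.

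The rule for similar genes took, for each of the 6, the 3 genes with the smallest root mean square difference of gene-level ratios over the 5 arrays. The Esrrb ratio used here is that of probe 427 alone. For Esrrb the nearest was the short-wave opsin gene Opn1sw, with a root mean square difference of 0.07 and a ratio of 3.28 ± 0.09, followed by the lipid enzyme gene Cds1 at 3.32 ± 0.03. For Neurod1 it was the rod channel subunit gene Cngb1, at 2.97 ± 0.23 and a difference of 0.25, ahead of Mtfr1 at 2.66 ± 0.10 and Ypel2 at 2.90 ± 0.14. The genes nearest to Otx2 were the histone gene H2bc4 (3.37 ± 0.05), the anion transporter gene Slco4a1 (3.41 ± 0.11) and the bipolar cell G protein gene Gng13 (3.37 ± 0.08). H2bc4 was also the third gene for Esrrb.

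Rorb lay closest to Slmap (1.69 ± 0.06), Plpp2 (1.75 ± 0.06) and Cpt2 (1.67 ± 0.06). Rxrg lay closest to Selenoi, Nostrin and Adamts19, with ratios between -0.29 and -0.28, and Bhlhe40 to Ktn1, Suco and Ccnt1, with ratios between 0.39 and 0.40. A small difference sets little apart near the centre: 1465 genes lay within 0.25 of Rxrg and 295 within 0.25 of Bhlhe40, against 9 for Otx2, 9 for Esrrb, 1 for Neurod1 and 49 for Rorb. The arrays are repeats of the same pools, so likeness here is closeness in ratio and carries no pattern across conditions.

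Since 4 of the genes were higher together, their start regions were searched for letters that these factors are known to bind. RefSeq of GRCm38.p6 gave 11 windows of 250 bases before to 50 bases after a transcription start, for 5 of the 6 genes, with no entry used for Bhlhe40. The letters were TAATCC for Otx and Crx, the E-box CAGATG, the E-box CAGCTG, the Bhlhe40 site CACGTG and the core AGGTCA of nuclear receptor sites, on both strands. Starts are numbered in the direction of transcription. The 4 windows that hold a match are shown with the Neurod1 window, the single start of a gene with a high ratio and no match, and capitals mark the matches.
Otx2 start 3 (chr14:48665060-48665359, minus strand): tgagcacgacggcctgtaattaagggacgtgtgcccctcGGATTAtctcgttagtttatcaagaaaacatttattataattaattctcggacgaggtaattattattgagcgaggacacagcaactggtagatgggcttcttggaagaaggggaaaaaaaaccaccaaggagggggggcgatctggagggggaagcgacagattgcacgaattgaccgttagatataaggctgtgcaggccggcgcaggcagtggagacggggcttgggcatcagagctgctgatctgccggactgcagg
Otx2 start 4 (chr14:48662685-48662984, minus strand): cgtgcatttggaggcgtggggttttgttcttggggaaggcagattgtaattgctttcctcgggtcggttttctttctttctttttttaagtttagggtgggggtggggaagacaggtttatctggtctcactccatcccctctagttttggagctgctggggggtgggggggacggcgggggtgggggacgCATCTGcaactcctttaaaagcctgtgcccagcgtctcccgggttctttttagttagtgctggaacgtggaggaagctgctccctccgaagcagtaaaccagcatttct
Neurod1 start 1 (chr2:79456587-79456886, minus strand): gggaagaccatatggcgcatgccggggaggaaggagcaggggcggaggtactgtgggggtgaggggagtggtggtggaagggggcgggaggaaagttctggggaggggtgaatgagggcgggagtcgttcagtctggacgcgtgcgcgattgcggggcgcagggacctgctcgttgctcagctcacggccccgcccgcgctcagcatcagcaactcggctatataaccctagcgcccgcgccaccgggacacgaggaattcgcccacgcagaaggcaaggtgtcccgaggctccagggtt
Esrrb start 2 (chr12:86421394-86421693, plus strand): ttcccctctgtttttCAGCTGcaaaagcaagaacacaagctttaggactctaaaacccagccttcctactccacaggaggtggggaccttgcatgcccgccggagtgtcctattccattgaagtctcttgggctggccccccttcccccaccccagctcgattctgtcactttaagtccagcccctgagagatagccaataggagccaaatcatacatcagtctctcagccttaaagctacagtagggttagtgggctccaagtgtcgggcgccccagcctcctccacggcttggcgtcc
Rxrg start 2 (chr1:167618015-167618314, plus strand): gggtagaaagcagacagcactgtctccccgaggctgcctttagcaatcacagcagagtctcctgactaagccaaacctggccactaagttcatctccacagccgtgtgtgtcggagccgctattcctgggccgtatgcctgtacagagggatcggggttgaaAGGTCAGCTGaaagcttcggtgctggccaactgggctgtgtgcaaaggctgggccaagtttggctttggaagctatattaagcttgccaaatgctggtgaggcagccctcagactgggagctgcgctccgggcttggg

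Of the 4 genes called higher, Otx2 and Esrrb had a match and Neurod1 and Rorb had none. Otx2 start 3 held TAATCC on the other strand, 211 bases before the start, and Otx2 start 4 held CAGATG on the other strand, 59 bases before it. Esrrb start 2 held CAGCTG 235 bases before the start. Rxrg start 2 held AGGTCA 88 bases before the start, overlapping a CAGCTG 84 bases before it, so the gene with a ratio below 0 had as many matches as Otx2. The other 7 windows held 0 matches.

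Such matches are common. Of 32851 windows of the same length, 7.06% held TAATCC, 17.2% CAGATG, 16.3% CAGCTG, 7.15% CACGTG and 16.3% AGGTCA. Among the 11 windows of these genes the counts were 1, 1, 2, 0 and 1. The Neurod1 window was rich in CG, with 26 CG steps and 66.7% G and C, where the median window has 7 and 52.7%. The windows of Otx2 starts 1 to 4 held 6, 8, 16 and 11 CG steps, and those of Rorb starts 1 and 2 held 20 and 5. A match is a description of letters and no evidence of binding.

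Of 21 relatives of these genes by protein family, 8 were measured at gene level: 0 were called higher, 1 lower and 7 did not pass, with a median of 0.48. Over all genes 2.80% were called higher and 3.83% lower. By limma's 2-fold test 0 relatives were higher at an unadjusted p below 0.05 as well. Among the neuronal helix-loop-helix genes beside Neurod1, the projection neuron gene Neurod6 was called lower in retina at -2.69 ± 0.09, or 6.47-fold lower, with a limma adjusted p of 5.37e-07. Neurod2, which is also made by cortical neurons, stood at -0.42 ± 0.01 and the proneural gene Neurog1 at 0.21 ± 0.05, and neither passed. The lowest array of Neurod1 read 2.42 and the highest of Neurod6 read -2.62, so these relatives lay on opposite sides without overlap.

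The nuclear receptor relatives lay between the members. Esrrg, like Esrrb an orphan receptor that acts on energy metabolism genes, stood at 0.93 ± 0.17 and Esrra at 0.75 ± 0.19. Rora, the relative of Rorb in cerebellum and cones, stood at 0.95 ± 0.11, and Rxrb at 0.06 ± 0.09. Rxra, a receptor that pairs with many nuclear receptors, stood at 1.05 ± 0.04, just above 2-fold on all 5 arrays, and did not pass with a limma adjusted p of 0.733.

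Probes of these relatives disagreed as well, so their gene-level means need care. The ratios of Rxra, Esrrg and Rora average 2 probes each, while the gene-level ratio of Esrrb rests on probe 427 alone. The 2 probes of Rxra read 1.85 and 0.24, a difference of 1.61 ± 0.04 that passed the 2-fold difference test with a limma adjusted p of 0.000277. Those of Esrrg read 0.39 and 1.48, and those of Rora 0.38 and 1.51, with differences of -1.09 ± 0.12 and -1.13 ± 0.11 that did not pass.

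**Figure D4:**
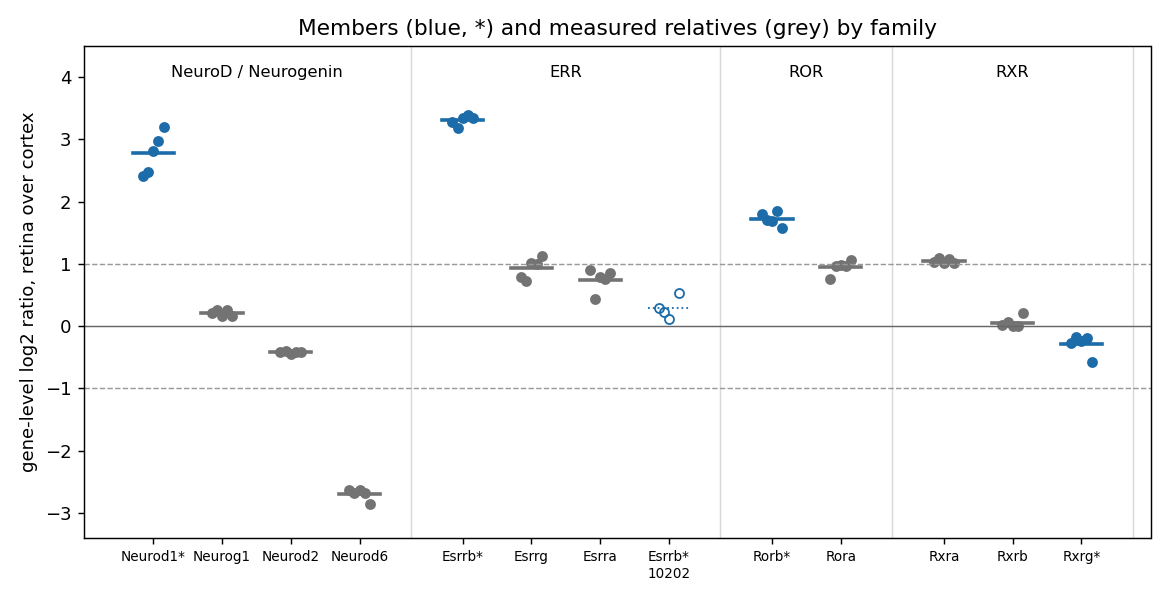
Gene-level log2 ratio of retina over cortex (vertical axis) on the 5 arrays (points) with the mean (line), for members (blue, starred) and measured relatives (grey) in 4 families, with 2-fold as dashed lines and the second Esrrb probe as open points. Neurod1 lies at 2.78 and Neurod6 at -2.69, while Esrrg, Esrra, Rora and Rxra lie between 0.75 and 1.05.

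The list of phototransduction and outer segment genes, which holds known targets of these factors, had 5 of 42 genes measured, and all 5 were called higher. Of all genes, 2.80% were called higher. Cdhr1, a cadherin of the outer segment, stood at 4.30 ± 0.05. Opn1sw, a cone opsin gene that Rorb activates, stood at 3.28 ± 0.09 and Cngb1 at 2.97 ± 0.23. The other called genes were Prom1, of the outer segment discs, at 2.52 ± 0.15, and Gnb1, the beta subunit of rod transducin that many other cells make too, at 2.15 ± 0.10. The remaining 37 genes of the list were not analysed here.

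Of 30 other factors of photoreceptor fate, 12 were measured: 1 was called higher, 1 lower and 10 did not pass, with a median of 0.11. Over all genes 2.80% were called higher and 3.83% lower. Crx, Nrl, Nr2e3 and Thrb were not among the measured genes. The gene called higher was Pax6, at 2.99 ± 0.03, a homeobox gene of retinal progenitors that stays on in amacrine and ganglion cells. The gene called lower was the progenitor factor Sox2, at -1.26 ± 0.15 with a limma adjusted p of 0.0284, and that call was lost with scale or quantile normalization and without array 1, 2 or 4. Mef2c, a factor of cortical neurons, was the farthest from 0 of those that did not pass, at -0.97 ± 0.05.

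Of 24 dimer partners and cofactors of these factors, 16 were measured, 0 were called higher, 2 lower and 14 did not pass, and limma's 2-fold test gave 0 higher without adjustment too. Over all genes 2.80% were called higher and 3.83% lower. The lower genes were Nr4a2, an orphan receptor that can pair with retinoid X receptors, at -1.19 ± 0.06, and Tcf4, an E-protein that pairs with factors such as Neurod1, at -1.18 ± 0.10. Their limma adjusted p-values were 0.00629 and 0.0410, and neither was called after scale or quantile normalization. Ppara was the farthest from 0 of the rest, at 1.01 ± 0.03.

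Among clock genes, with which Bhlhe40 and the ROR family are linked, 11 of 19 were measured, 2 were called higher, 0 lower and 9 did not pass, and limma's 2-fold test gave 0 lower without adjustment too. The higher genes were Nr1d2, a repressor that competes with ROR proteins for the same sites, at 2.00 ± 0.04 and Arntl, the activator that Bhlhe40 represses, at 1.38 ± 0.15. Ciart, at 0.70 ± 0.11, was the farthest from 0 of those that did not pass. Of all genes, 2.80% were called higher and 3.83% lower. The hour at which the tissues were taken is not given in the sources used here.

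**Figure D5:**
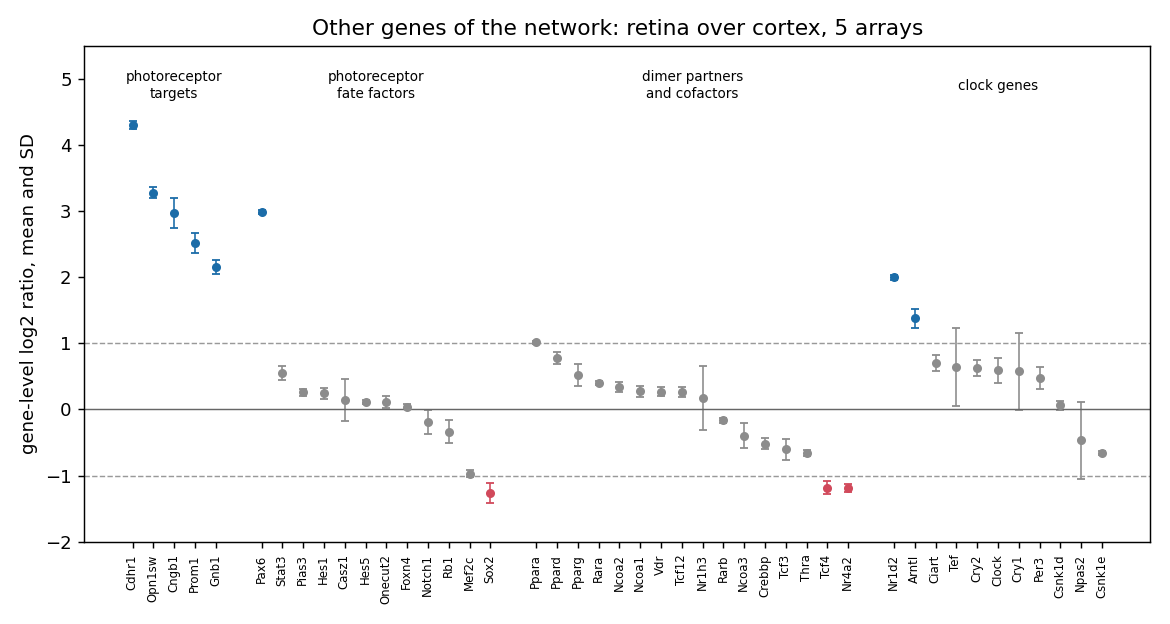
Gene-level log2 ratio of retina over cortex (vertical axis, mean and SD over 5 arrays) for measured genes of 4 lists: photoreceptor targets, other fate factors, dimer partners with cofactors, and clock genes. Blue genes were called higher, red ones lower and grey ones did not pass. Blue are all 5 targets, 1 of 12 fate factors, 0 of 16 partners and 2 of 11 clock genes. The share called higher over all genes was 2.80%.

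Markers of cells that share these factors bear on what the retina pool held. Rods had 2 of 12 markers measured and cones 1 of 8, and all 3 were called higher. These 3 genes, Cdhr1, Cngb1 and Opn1sw, were already counted in the target list. Of 10 bipolar markers 1 was measured, Gng13, which was called higher. Of 5 measured amacrine and horizontal cell markers 2 were called higher, with a range from 0.11 to 2.99, as were 2 of 3 ganglion cell markers (0.19 to 1.87) and 2 of 4 Müller glia markers (0.71 to 2.69). Of 3 measured cortical neuron markers 2 were called lower, with a range from -2.69 to -0.42. Pax6, an amacrine and horizontal cell marker called higher, is the fate factor called higher above. Neurod6 and Neurod2, among the cortical markers, were already counted as relatives. The marker counts therefore share genes with the lists above. The shares over all genes were 2.80% called higher and 3.83% called lower. Otx2, Neurod1, Rorb and Esrrb probe 427 were called higher like many of the retinal markers. Rxrg at -0.29, Bhlhe40 at 0.41 and Esrrb probe 10202 at 0.29 were not. The share of each cell type in the ratios of these probes was not tested.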

How the data were processed

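Total RNA of 2 pools was measured on 5 two-colour arrays. Whether and how background was corrected and dyes were normalized in the deposited values has no source here. The deposited values were read as log10 ratios. Their unit is unstated, and they stop exactly at 2 and -2, where 5 values lie. Array medians were 0 on arrays 1 to 4 and -7.32e-05 on array 5. Spot intensities were not used, so dim probes could not be told from bright ones, and precision is set by the 5 arrays.

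Values were multiplied by 3.32 to give log2, and an exact 0 (174 to 1068 per array) was read as no value. Of 21446 probes, 11813 had 1 gene symbol, 559 had several and 9074 were not listed. Gene identifiers matched RefSeq GRCm38.p6 for 11782 of them, and no coordinates of genes or probes are given since no build is named for the arrays. The start windows carry RefSeq's own GRCm38.p6 coordinates. Probes with at least 3 values entered the probe fit. A gene's value was the mean over probes with a value on all 5 arrays. Fits used limma 3.58.1 in R 4.3.3 with an intercept, treat for the 2-fold test and eBayes against 0, two-sided with Benjamini-Hochberg adjustment, and were tested on simulated data. Alternatives covered scaling, centring, missing values, the probe rule, the prior, weights, minimum fold, log base and leaving out single arrays.

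The genes named are the 6 members, every measured relative, the 3 genes farthest from 0 called in each direction in each other list with the 1 farthest that was not called, and the 3 most similar genes. In the target list, Prom1 and Gnb1, and among the unmeasured genes Crx, Nrl, Nr2e3 and Thrb, were named outside that rule. So were the markers Ttr, Aqp1 and Gng13. The members and lists were chosen with earlier results of these data known.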

Additional observations from a re-analysis of the deposited data

Results flagged for a closer look

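For Rxrg, array 5 read -0.58 while the remaining 4 lay from -0.27 to -0.17, a gap large for the range of the values. Its sign was the same on all 5 arrays. The relative Neurod6 read -2.85 on array 5 too, and between -2.68 and -2.62 on the others, with the same sign throughout. Such a gap was looked for in 21 measures, of which these 2 showed it. Chance alone gives it in about 5% of measures.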

How the results depend on the processing

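The log base aside, 13 or 14 alternatives were run at the probe level and 15 at the gene level. Under these, all 6 genes kept their sign and their side of the 2-fold test. Only the log base ended calls of these 6 genes. With the deposited values read as log2, Otx2 stood at 1.03, Neurod1 at 0.84, Esrrb at 1.00 and Rorb at 0.52, and the Esrrb probes 0.90 apart, each with a limma adjusted p of 1. Then 8 probes (3 higher, 5 lower), 7 genes and 0 probe pairs passed, with 1 target higher and 0 calls in the other lists, and the neighbour differences from Esrrb down were 0.16, 0.32, 0.39 and 0.21. All of this follows from the smaller ratios. A minimum of 1.5-fold gave 1862 probes (783 higher, 1079 lower), 1408 genes and 469 pairs, with 3 relatives and 2 partners higher and 2 fate factors lower. With every deposited probe in the fit, 1537 probes passed and 1123 of them were lower. Scale and quantile normalization left 0 lower fate factors and 0 lower partners. Leaving out 1 array gave 0 to 1 lower fate factors and 1 to 2 lower partners. Otx2 stood 1.65 above Esrrb with exact 0 read as 0 and 1.31 with all values averaged, and 0.070 to 1.64 with 1 array left out. Esrrb minus Neurod1 was then -1.01 and -0.67, and -0.94 to 0.63, since the second Esrrb probe enters. Without the 50 bases after the start, 6.25% of windows held TAATCC, 14.4% CAGATG, 13.0% CAGCTG, 6.02% CACGTG and 14.0% AGGTCA, as shorter windows hold fewer letters. No paired analysis was possible because all arrays belong to 1 group.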
